A study of Mus musculus with 2 samples.

Results

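Class II high macrophages were taken as the barcodes of an injured mouse tendon site that combined a myeloid signature with strong expression of the peptide-presenting class II molecules and with C1qa or Ms4a7, and that carried few transcripts of the neighbouring macrophage and monocyte types. Barcodes with at least 500 genes, at least 1000 unique molecular identifiers (UMIs, each a counted transcript) and at most 10% mitochondrial UMIs were kept. Expression in a barcode was expressed as UMIs per 10000 of its total (CP10K). Members had a sum of Tyrobp, Fcer1g and Ctss of at least 20 CP10K, a sum of S100a8 and S100a9 under 100, a sum of H2-Aa, H2-Ab1 and Cd74 of at least 50, and a sum of C1qa and Ms4a7 of at least 3. They also had under 10 CP10K of Mrc1 and Folr2, under 10 of Arg1 and Mmp12, and under 5 of Ly6c2. The rule found 260 members among 9240 kept barcodes of the control library and 367 among 7190 of the irradiated library, or 627 of 16430 in all. The values that chose the members are descriptions and support nothing below.

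The series holds 2 single-cell libraries of unsorted cells from male C57BL/6 mice aged 8 to 10 weeks, prepared with the droplet-based 3' chemistry of 10x Genomics. Mice of both groups received a dorsal burn over 30% of the body surface together with transection of the left Achilles tendon, an injury after which bone forms ectopically in the limb, and the tenotomy site was collected on day 7. The control library came from mice given no radiotherapy, and the irradiated library from mice given a single X-ray dose of 7 Gy through a collimator 2 cm wide. Per the labels each arm had 10 mice, with irradiation on either day 1 or day 3 after surgery, and the series text points to day 3. How many mice were pooled for a library is not given in the sources used here. With 1 library per group, no difference below has a replicate check, library and treatment cannot be told apart, and all intervals are 95% intervals that cover counting error only.

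Class II molecules display peptides from engulfed material to CD4 T cells. Their genes are switched on together by the coactivator Ciita, which acts through factors bound at the X and Y boxes of their promoters, and interferon-gamma is a classical inducer of that coactivator. In injured tissue, Ccr2 on circulating monocytes directs them to the lesion, where they become macrophages, and such monocyte-derived cells often carry class II. Type I interferons act through a transcription factor complex that binds the interferon-stimulated response element, while interferon-gamma induces guanylate-binding proteins, immunity-related GTPases and the T-cell-attracting chemokines Cxcl9 and Cxcl10.

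Members carried general macrophage markers and Ccr2 in both libraries. Csf1r, the receptor for the macrophage growth factor, had UMIs in 88.1% of control and 93.2% of irradiated members. Adgre1, which encodes F4/80, had UMIs in 68.8% and 73.3%. C1qb, a subunit of complement C1q, was seen in 88.5% and 86.4%. As the rule asked for C1qa of the same complex or for Ms4a7, these C1qb shares are not independent of it. Ccr2 was seen in 75.4% and 80.4%, and its summed level, scaled to 1000000 UMIs (CPM), was 420.8 in control and 413.2 in irradiated members. After each cell was thinned to 2000 UMIs, Ccr2 was found in 51.0% of 255 control members (interval 44.7 to 57.3%) and 48.9% of 350 irradiated members (43.5 to 54.2%), against 0% and 0.34% of keratinocyte barcodes thinned in the same way, so the shares in members stood above that background and their intervals overlapped. Of the control members 186 had both C1qa and Ms4a7, 44 had C1qa alone and 30 Ms4a7 alone, against 274, 40 and 53 of the irradiated members. Transcripts of other leukocytes were absent for some markers and present for others. Cd3e of T cells had 0 UMIs in both libraries, Xcr1 of type 1 dendritic cells had 1 UMI in each, and Lyve1 of resident macrophages had 1 UMI in control and 0 in irradiated members. The whole lists summed to 1809 and 734.0 CPM for 16 resident macrophage genes, 173.0 and 467.7 CPM for 5 Langerhans cell genes, and 229.8 and 259.2 CPM for 7 genes of type 1 dendritic cells. Other dendritic lists summed to 125.6 and 148.9 CPM (8 shared genes), 182.4 and 113.7 CPM (7 of type 2) and 149.3 and 175.0 CPM (10 of mature cells). For 17 T and NK cell genes the sums were 8.61 and 54.9 CPM. A cut of 3 CP10K on dendritic or Langerhans transcripts marked 19 control and 21 irradiated members, and only these are left out where stated below. Smaller amounts were more widespread. The type 1 dendritic list had per-cell medians of 1.57 and 1.53 CP10K, and 13.6% of irradiated members lay above the control median of 0 for the Langerhans list.

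The gate cut through continuous values at some edges. Within 1 CP10K of the Ly6c2 limit lay 3 control members inside and 2 barcodes outside, against 17 and 12 in the irradiated library. Ly6c2, a surface protein of classical monocytes, was at 0 in 233 of the 260 control members but in 197 of the 367 irradiated ones. Within 10 CP10K of the class II limit lay 19 control members inside and 12 barcodes outside, against 9 and 17 in the irradiated library. Median depth was 8040 UMIs per control member and 10981 per irradiated member, and the median mitochondrial share was 3.26% and 1.71%. Scrublet placed 17 control and 19 irradiated members among the barcodes scored as doublets. No barcode sequence was shared between the members of the libraries, although 32 were shared among all barcodes and 2 members had a sequence that also occurred in the other library.

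Class II high macrophages made up 2.81% of kept control barcodes (exact Clopper-Pearson interval 2.49 to 3.17%) and 5.10% of irradiated ones (4.61 to 5.64%), a ratio of 1.81 (1.54 to 2.13). Myeloid barcodes as a whole, those passing the first 2 steps, made up 25.9% of kept barcodes in control and 43.0% in irradiated. Measured against those, the members made up 10.9% in control (9.65 to 12.2%) and 11.9% in irradiated (10.7 to 13.1%), and the ratio of 1.09 (0.93 to 1.28) did not leave out equality. The last step decided much of the count, because the Ly6c2 limit removed 248 of 615 irradiated barcodes and 27 of 287 control barcodes. Without that limit the shares were 3.11% and 8.55%. Without the limit on Mrc1 and Folr2, which took off more control barcodes, they were 4.37% and 6.18%.

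**Figure D1:**
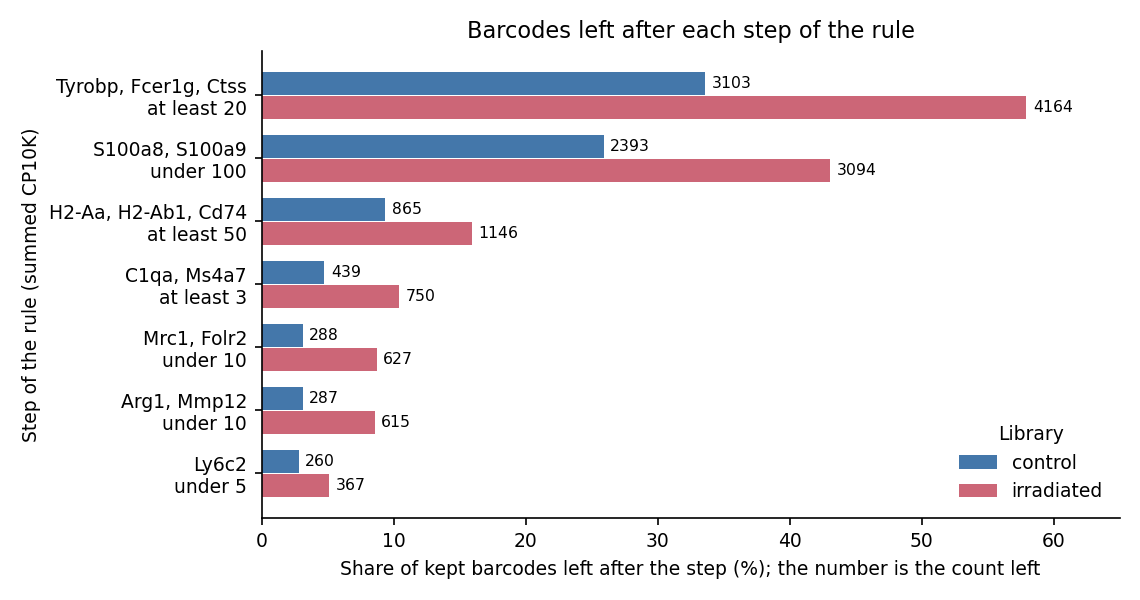
Share of kept barcodes left after each successive step of the rule, in percent on the horizontal axis, for the control and irradiated libraries. The number beside each bar is the count of barcodes left, and the largest late drop is that of the irradiated library at the Ly6c2 step, from 615 to 367.

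UMIs were summed over the members of each library, giving 2324159 UMIs in control and 4096897 in irradiated, and expressed as CPM. A gene was called higher or lower in the irradiated members when its CPM ratio was at least 1.5-fold and the exact Poisson interval of the ratio left out equality, among genes with at least 20 UMIs over both sums. This is a rule of size and not a test. Of 10813 genes measured outside the rule, 629 were higher, which is 5.82%, and 946 were lower, which is 8.75%. Every count of calls in a list of the members is to be read beside these shares. The median gene stood at -0.08 on the log2 scale. Higher genes were thus 39.9% of all calls, and 52.0% (794 higher, 733 lower) once every ratio was divided by the median ratio. Among the 629 higher genes 337 had UMIs in at least 20% of irradiated members, whereas 228 of the 946 lower genes had UMIs in at least 20% of control members. A single member supplied at least 50% of the library's UMIs for 39 of the higher and 95 of the lower genes.

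**Figure D2:**
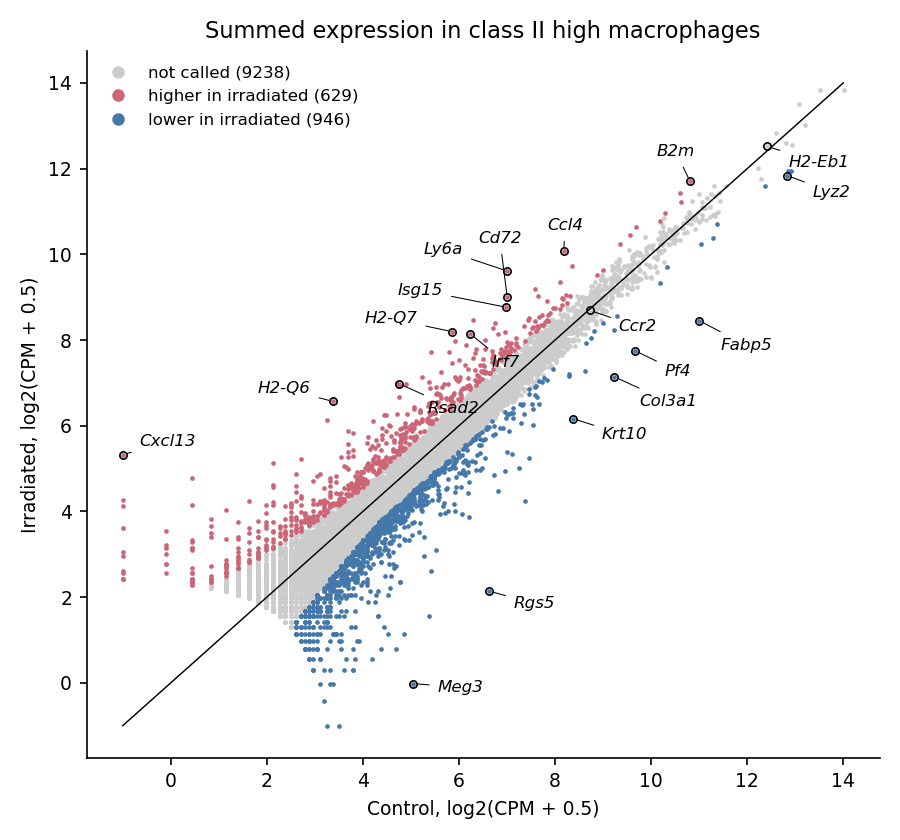
Summed expression of the 10813 measured genes in class II high macrophages, as log2(CPM + 0.5) in control on the horizontal and in irradiated on the vertical axis. Red points were called higher (629), blue points lower (946), and the line marks equal levels; H2-Eb1 and Ccr2 lie beside the line, Ly6a and Isg15 above it and Fabp5 and Lyz2 below it.

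Genes of the type I interferon response were higher in the irradiated members almost as a block. Of 28 measured genes on the list, 25 were called higher and 0 lower, with a median log2 ratio of 1.13. Isg15, a ubiquitin-like protein that is attached to other proteins during antiviral defence, had 293 UMIs in control and 1780 in irradiated members, or 126.1 and 434.5 CPM, a log2 ratio of 1.79 (1.61 to 1.97). It was found in 35.8% of control and 70.8% of irradiated members. After thinning to 2000 UMIs the shares were 10.6% and 39.1%, against 0.85% and 6.61% of keratinocyte barcodes. Irf7, the factor that amplifies interferon production, stood at 74.9 and 282.7 CPM. Rsad2, which encodes the antiviral enzyme viperin, stood at 26.2 and 126.2 CPM, a log2 ratio of 2.27 (1.88 to 2.67). Ifi44 stood at 3.87 and 34.7 CPM. Both lost part of the difference when cells were thinned and gated anew, where Rsad2 had a log2 ratio of 0.79 and Ifi44 was no longer called. Outside the list, Slfn4, a myeloid Schlafen gene, stood at 9.04 and 69.6 CPM, and Ifit1bl1 had 2 and 71 UMIs.

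Per cell, the summed type I interferon list had a median of 12.4 CP10K in control members (quartiles 7.14 and 21.9, highest 123.1) and 32.9 in irradiated members (20.3 and 51.8, highest 249.4). Of the irradiated members, 87.2% lay above the control median and 71.4% above the control upper quartile. The distributions overlapped, and the shift ran through most of the irradiated members and not through a small subset.

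**Figure D3:**
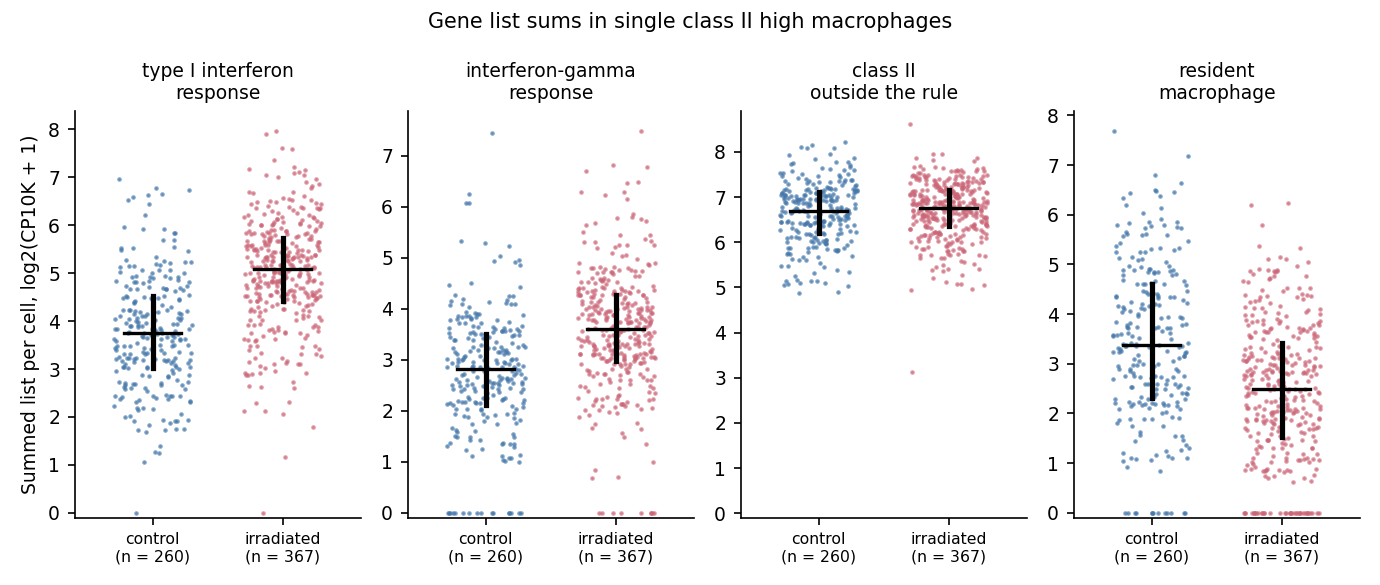
Summed gene lists in single class II high macrophages, as log2(CP10K + 1) on the vertical axis, for 260 control and 367 irradiated cells. Each point is a cell, the thick bar spans the quartiles and the thin bar is the median; both interferon lists are displaced upward in the irradiated library, the class II genes outside the rule are not, and the resident macrophage list is displaced downward.

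The promoters of these genes were searched for the element through which interferons act. Of the 28 genes, 20 had an entry in the RefSeq promoter table (GRCm38.p6). Of these 20, 9 held the motif GAAA, any 2 bases, GAAA, read on either strand, in the 250 bases before the gene's start. The same motif was present in 2.98% of all 32851 promoter windows of that length, in 3.62% of the measured genes with an entry, in 12.1% of the genes called higher and in 3.06% of those called lower. On the interferon-gamma list 12 of 18 genes with an entry held it. The promoters of 4 genes with a match are printed 5' to 3' in the direction of the gene, up to the base before its start, with the matches in capitals; overlapping matches run together. Isg15 (chr4:156200819-156201068, minus strand) has 3 overlapping matches, Ifit1 (chr19:34640639-34640888, plus strand) 2 separate ones, Rsad2 (chr12:26456453-26456702, minus strand) 1 and Oas1a (chr5:120907526-120907775, minus strand) 2 overlapping ones.
Isg15: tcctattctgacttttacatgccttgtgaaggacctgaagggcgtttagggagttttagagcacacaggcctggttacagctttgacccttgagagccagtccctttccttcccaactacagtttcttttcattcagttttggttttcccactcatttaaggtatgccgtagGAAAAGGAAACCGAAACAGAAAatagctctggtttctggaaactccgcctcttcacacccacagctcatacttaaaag
Ifit1: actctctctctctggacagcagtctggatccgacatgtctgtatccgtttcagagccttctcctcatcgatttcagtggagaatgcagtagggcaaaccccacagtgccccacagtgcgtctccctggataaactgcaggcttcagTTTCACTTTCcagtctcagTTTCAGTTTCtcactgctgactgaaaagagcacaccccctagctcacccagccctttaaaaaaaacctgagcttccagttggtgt
Rsad2: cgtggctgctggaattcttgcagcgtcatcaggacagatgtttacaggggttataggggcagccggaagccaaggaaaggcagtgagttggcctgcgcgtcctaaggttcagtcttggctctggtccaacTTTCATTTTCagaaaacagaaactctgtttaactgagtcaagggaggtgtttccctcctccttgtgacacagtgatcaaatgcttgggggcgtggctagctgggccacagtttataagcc
Oas1a: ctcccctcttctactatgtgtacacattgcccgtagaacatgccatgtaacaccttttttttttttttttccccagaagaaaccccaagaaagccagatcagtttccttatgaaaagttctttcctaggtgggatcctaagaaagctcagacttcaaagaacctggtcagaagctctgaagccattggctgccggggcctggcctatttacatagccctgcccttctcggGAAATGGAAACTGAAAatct
Ifit1, which encodes a protein that binds foreign RNA, stood at 12.5 CPM in control and 46.9 in irradiated members. Oas1a, one of the synthetases that activate RNase L, stood at 43.9 and 78.1 CPM. All 4 genes were called higher, and a match is a description of these letters and not a shown binding site.

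The interferon-gamma list gave 15 higher and 0 lower of 20 measured genes, with a median of 0.88. Gbp6, a guanylate-binding protein, had 3 UMIs in control and 44 in irradiated members. Cd274, which encodes the checkpoint ligand PD-L1, stood at 80.9 and 221.9 CPM and was found in 38.5% and 58.0% of members. Fcgr1 and Fcgr4, both activating receptors for IgG, had CPM levels of 203.5 and 369.8, and of 103.3 and 178.2, respectively. Cxcl9 had 9 and 98 UMIs but was found in only 1.54% and 4.09% of members, and Cxcl10 stood at 126.9 and 247.5 CPM. Irf1, an interferon-inducible transcription factor, was level at 87.8 and 90.8 CPM. Per cell the list had medians of 6.00 and 11.2 CP10K. When cells were thinned and gated anew only 4 genes of this list were called, at a median of 0.44, and Cxcl10 and Fcgr1 were among those no longer called.

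Class I presentation genes also stood higher in part, with 8 of 20 genes higher, 1 lower and a median of 0.52. B2m, the shared light chain of class I molecules, stood at 1793 CPM in control and 3336 in irradiated members. H2-K1 and H2-D1, the classical heavy chains of this strain, had CPM levels of 1557 and 2744, and of 1246 and 2012, respectively. H2-T23, which encodes the nonclassical molecule Qa-1, stood at 111.4 and 282.4 CPM. H2-Q7 (chr17:35439155-35443773, plus strand), a nonclassical heavy chain of the Qa-2 family, stood at 57.7 and 292.4 CPM, a log2 ratio of 2.34 (2.08 to 2.61), and was found in 30.4% and 80.9% of members. Its neighbour H2-Q6, not on the list, stood at 9.90 and 94.2 CPM. H2-Q6 and H2-Q7 are close copies, so how reads were divided between them is uncertain. The gene called lower was Calr, a chaperone of class I assembly, at 513.3 and 338.8 CPM.

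Class II genes outside the rule did not share in that shift. Of 18 measured genes 1 was higher and 1 lower, at a median of -0.02, beside 5.82% higher and 8.75% lower of all genes measured. H2-Eb1, the beta chain of the I-E molecule, stood at 5470 CPM in control and 5865 in irradiated members, a log2 ratio of 0.10 (0.07 to 0.13). H2-DMa, part of the molecule that loads peptides, stood at 287.4 and 291.2 CPM. Ciita had 103 and 161 UMIs, or 44.3 and 39.3 CPM, and its log2 ratio of -0.17 had an interval of -0.54 to 0.20. The gene called higher was H2-DMb2, at 10.3 and 21.0 CPM, and the gene called lower was Rfxap, a subunit of the factor that binds the X box, at 35.3 and 23.4 CPM. The call on H2-DMb2 ended, with a log2 ratio of -0.23, once members with dendritic or Langerhans transcripts were left out. Per cell the list had medians of 102.8 CP10K in control and 107.3 in irradiated members, and 56.4% of irradiated members lay above the control median. Members were chosen on 3 class II genes of the same program, so these values are not independent of the rule.

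The class II promoters were searched for the boxes named above. Of the 10 class II chain genes sought, 8 had an entry. Of these, 4 held the Y box CTGATTGG and 3 the X box letters CTAGCAAC on either strand. The Y box was present in 6.03% of the measured genes with an entry and the X box in 1.17%. Over all promoter windows the shares were 3.83% and 1.13%. None of the 8 held the interferon motif. H2-Eb1 (chr17:34305617-34305866, plus strand) held 1 match of each and H2-Aa (chr17:34287824-34288073, minus strand), a gene of the rule, 1 match to the Y box; they are printed as before, with the matches in capitals.
H2-Eb1: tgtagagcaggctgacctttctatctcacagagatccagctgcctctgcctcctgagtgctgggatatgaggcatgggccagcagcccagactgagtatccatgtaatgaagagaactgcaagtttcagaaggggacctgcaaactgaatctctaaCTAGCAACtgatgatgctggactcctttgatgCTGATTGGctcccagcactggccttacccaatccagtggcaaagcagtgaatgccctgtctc
H2-Aa: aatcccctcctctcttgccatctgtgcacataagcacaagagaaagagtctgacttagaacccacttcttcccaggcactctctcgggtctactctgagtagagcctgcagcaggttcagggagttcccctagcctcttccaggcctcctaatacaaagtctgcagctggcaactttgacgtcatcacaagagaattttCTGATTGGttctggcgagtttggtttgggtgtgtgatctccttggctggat

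Ligands that attract leukocytes were mostly higher in the irradiated members. Of 19 chemokines measured 10 were called higher and 3 lower, at a median of 0.96. Ccl4 and Ccl3, chemokines of activated macrophages, had CPM levels of 289.6 and 1082, and of 107.6 and 337.3, respectively. Ccl2, Ccl7 and Ccl12, ligands of Ccr2, stood at 103.7 and 309.0 CPM, at 54.6 and 210.2 CPM and at 42.2 and 211.6 CPM. Cxcl2, which attracts neutrophils, stood at 822.2 and 1602 CPM. Ccl5 stood at 59.8 and 249.5 CPM, and since 1 control member held 95 of its 139 UMIs, its log2 ratio of 2.06 became 3.51 without the highest member of each library. The lower chemokines were Pf4 and Ccl8, both made by resident macrophages, and Cxcl12, a product of stromal cells. Ccl8 stood at 176.0 and 37.6 CPM, with 163 of its 409 control UMIs in 1 member. Pf4 stood at 813.2 and 214.3 CPM and was found in 57.3% and 44.4% of members.

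Among chemokine receptors 3 of 9 were higher and 0 lower. Among the higher ones the atypical receptor Ccrl2 stood at 172.1 and 351.7 CPM and Cxcr4 at 301.6 and 461.8 CPM. Cx3cr1, high on patrolling monocytes and many tissue macrophages, stood at 102.4 and 139.4 CPM and was not called. The log2 ratio of Cxcr4 lay near the 1.5-fold limit, between 0.54 and 0.79 over the alternatives, and it was called in 15 of 19 of them.

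Inflammatory mediators gave 7 higher and 1 lower of 22, beside 5.82% higher and 8.75% lower of all genes measured. Tnf stood at 114.5 and 206.7 CPM, the anti-inflammatory cytokine Il10 at 52.5 and 99.8 CPM, Nlrp3, the sensor of the inflammasome, at 197.5 and 320.2 CPM, and Nfkbiz, a regulator of secondary NF-kappaB targets, at 287.9 and 494.5 CPM. Il1b was found in 79.2% and 88.6% of members and stood at 1200 and 1677 CPM, under the 1.5-fold limit. The gene called lower was Il18, at 53.8 and 34.4 CPM. Nlrp3 was called in 17 of 19 alternatives, and a stricter form of the rule was among those that ended the call, at a log2 ratio of 0.52.

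Of 17 genes of costimulation and checkpoints 5 were higher and 0 lower. Cd72 (chr4:43446462-43454628, minus strand), a lectin-like coreceptor best known from B cells, had 297 UMIs in control and 2098 in irradiated members, or 127.8 and 512.1 CPM, a log2 ratio of 2.00 (1.83 to 2.18). It was found in 40.8% and 81.2% of members. After thinning, the shares were 14.5% and 51.1%, against 0.07% and 0% of keratinocyte barcodes. Slamf7 stood at 92.1 and 255.6 CPM and Tnfsf9, the ligand of 4-1BB, at 48.2 and 104.7 CPM. Cd86, a ligand of CD28, stood at 787.4 and 881.1 CPM and was not called.

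The complement and pattern receptor lists had medians of 0.20 and 0.30. Their calls stand beside 5.82% higher and 8.75% lower of all genes measured. On the complement list 3 of 14 were higher and 2 lower: Cfb, the protease of the alternative pathway, stood at 26.2 and 121.1 CPM and was found in 13.8% and 57.8% of members, C4b had 12 and 73 UMIs, and the anaphylatoxin receptor C3ar1 stood at 255.6 and 428.6 CPM, whereas Serping1, among the lower ones, had 43 and 13 UMIs. C1qb, at 2047 and 2713 CPM, and C1qc, at 1273 and 1418 CPM, were not called. Pattern receptors gave 5 higher and 1 lower of 21. Tlr7, the endosomal sensor of single-stranded RNA, stood at 23.2 and 63.5 CPM and Tlr2 at 178.6 and 284.1 CPM. Clec4n, which encodes Dectin-2, was lower at 448.8 and 296.1 CPM.

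Transcripts typical of resident tissue macrophages were lower in the irradiated members, as far as the rule let them be seen. Of 8 measured genes 7 were lower and 0 higher, at a median of -1.42. F13a1, a clotting factor subunit, stood at 137.7 and 40.0 CPM, Igf1 at 65.8 and 23.4 CPM, Gas6, a bridge between dying cells and their receptors, at 50.3 and 17.1 CPM, and the scavenger receptor Stab1 at 92.9 and 51.0 CPM. The rule capped Mrc1 and Folr2, themselves of this program, and below that cap the control members held more of them, with a median sum of 3.33 CP10K against 0.94. Without the cap 8 of 11 measured genes were lower and 0 higher, at a median of -1.27. Dropping it took the members from 260 to 404 in control and from 367 to 444 in irradiated. As it let in more control barcodes, chosen by genes of this program, that count cannot tell expression from the mix of cells. Monocyte genes were divided. Of 14 measured, 3 were higher and 6 lower, at a median of -0.58: Ms4a4c stood at 199.2 and 522.1 CPM and Plac8 at 192.8 and 295.1 CPM, against Vcan at 59.8 and 21.2 CPM, Fn1 at 401.9 and 242.6 CPM and Hp, haptoglobin, with 61 and 42 UMIs. Fn1 was called in 16 of 19 alternatives and Hp in 16 of 18. Among the alternatives that ended the calls were, respectively, those without the limit on Mrc1 and Folr2 and without that on Ly6c2. For Fn1, 1 irradiated member held 420 of the 994 UMIs. Lyz2, the lysozyme of myeloid cells, stood at 7317 and 3652 CPM, with a log2 interval of -1.03 to -0.97, and its median per cell was 66.7 and 28.1 CP10K.

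On the lipid handling list 1 of 20 genes was higher and 4 were lower, at a median of -0.06, and its fatty acid carriers were among the lower ones. Fabp5 (chr3:10012548-10016607, plus strand), which binds fatty acids in the cytoplasm, had 4771 UMIs in control and 1432 in irradiated members, or 2053 and 349.5 CPM, a log2 ratio of -2.55 (-2.64 to -2.47). It was found in 97.3% and 67.3% of members, and its median per cell was 7.20 and 1.05 CP10K. Keratinocytes express Fabp5 too, at 19170 and 7333 CPM. The ratio of Fabp5 to Krt14 UMIs was 1.13 in control and 0.51 in irradiated keratinocyte barcodes, and 3.67 and 0.73 over all members. Leaving out the members that carried other lineages, which removes Krt14 UMIs by construction, gave 10.3 and 8.19, with Fabp5 at 1965 and 364.1 CPM. The part of keratinocyte RNA in the Fabp5 difference was not tested. Fabp4 stood at 130.4 and 58.6 CPM, although 1 member held 166 of the 303 control and 1 member 188 of the 240 irradiated UMIs. Gpnmb, a glycoprotein of lipid-laden macrophages, stood at 68.0 and 29.5 CPM. Abcg1, an exporter of cholesterol, was the higher gene, at 130.8 and 203.8 CPM. Apoe, at 6217 and 7268 CPM, and Trem2, at 276.7 and 261.2 CPM, were not called. Pparg, a nuclear receptor for fatty acids counted on the efferocytosis list, stood at 45.6 and 119.4 CPM. Of 21 lysosomal genes 0 were higher and 2 lower, beside 5.82% higher and 8.75% lower of all genes measured. Of those called lower, Cd63 stood at 1164 and 643.7 CPM.

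Most genes that respond to DNA damage through p53 were not called. Of 23 measured, 4 were higher and 0 lower, beside 5.82% higher and 8.75% lower of all genes measured. Their median was 0.28, beside -0.08 over all genes, and lay between 0.12 and 0.36 over the alternatives. Cdkn1a, which encodes the cell cycle inhibitor p21, had 1007 UMIs in control and 2510 in irradiated members, or 433.3 and 612.7 CPM, a log2 ratio of 0.50 (0.39 to 0.61), and was found in 84.6% and 90.2% of members. For Mdm2, whose product marks p53 for degradation, the levels were 238.4 and 294.4 CPM. The genes called were Bbc3, the death activator PUMA, with 17 and 77 UMIs, Phlda3 with 12 and 58, Ccng1, cyclin G1, at 21.5 and 37.1 CPM, and Plk2 at 36.1 and 57.4 CPM. Bbc3 was called in 17 of 17 alternatives, with log2 ratios of 1.07 to 2.03. The call on Phlda3 ended in 4 of 16 alternatives, where its log2 ratio was still at least 1.03. Ccng1 and Plk2 were each called in 17 of 19 alternatives. Among those that ended the calls were thinning and new gating for Ccng1, at 0.36, and no limit on Mrc1 and Folr2 for Plk2, at 0.37. Among 20 genes of death and survival 4 were higher and 0 lower, 3 of them Bcl2a1 copies, whose reads cannot be divided with certainty; Bcl2a1b stood at 274.1 and 654.6 CPM.

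Members were rarely in division. After thinning to 2000 UMIs, 8 of 255 control members (3.14%, 1.36 to 6.09%) and 5 of 350 irradiated members (1.43%, 0.47 to 3.30%) had at least 2 UMIs over 20 mitosis genes, and the ratio of 0.46 (0.12 to 1.58) did not leave out equality. Without thinning the shares were 18.1% and 13.4%. On the mitosis list 6 of 14 measured genes were lower and 0 higher, at a median of -0.68, with Top2a at 58 and 42 UMIs. On the DNA synthesis list 8 of 19 were lower and 0 higher, at a median of -0.62, with Dut at 52 and 31 UMIs and Rrm2 at 26 and 5, 14 of the latter in 1 control member. These low counts moved with the way of counting, the mitosis median reaching 0.10 when every cell was weighted alike and the DNA synthesis median -0.04 after thinning and new gating.

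Some of the largest ratios rested on single cells. Ranked by the bound of the interval nearest to equality, the 12 genes farthest above it included 4 in which a single member supplied at least 50% of the irradiated UMIs, and the 12 farthest below it included 7 such genes in the control members. UMIs in at least 20% of members were found for 6 of the former and 2 of the latter. Cxcl13, a B-cell-attracting chemokine, had 0 UMIs in control members and 162 in irradiated ones, all in 1 cell. Gzma and Gzmb, granzymes of cytotoxic lymphocytes, had 0 in control and 77 and 70 in irradiated members, of which 76 and 65 came from 1 cell each. Col25a1 had 109 of its 110 irradiated UMIs in 1 cell. At the lower end Rgs5, a pericyte gene, had 168 of 228 control UMIs in 1 member, Mgp 311 of 385 and Meg3 62 of 75.

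A ranking limited to genes with UMIs in at least 20% of the members of the library in which they were called higher was added after these values were seen. Its upper end was H2-Q6, Ly6a, Slfn4, H2-Q7, Ccl12, AW112010, Ifi205, Rsad2, Cd72, Cfb, Ccl5 and Ccl4. Ly6a (chr15:74994877-74998031, minus strand), which encodes the surface protein Sca-1, had 297 UMIs in control and 3200 in irradiated members, or 127.8 and 781.1 CPM, a log2 ratio of 2.61 (2.44 to 2.79). Its share of members was 27.3% and 81.5%, and after thinning 12.9% and 57.7%. The latter stand beside 45.1% and 52.0% of keratinocyte barcodes, which express Ly6a themselves. The lower end was Fabp5, Krt16, Krt10, Col3a1, Cstdc5, Ccl8, Krt6b, Pf4, Bgn, F13a1, Clec10a and Calm4, in which keratins and matrix genes stand beside the myeloid genes described above.

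**Figure D4:**
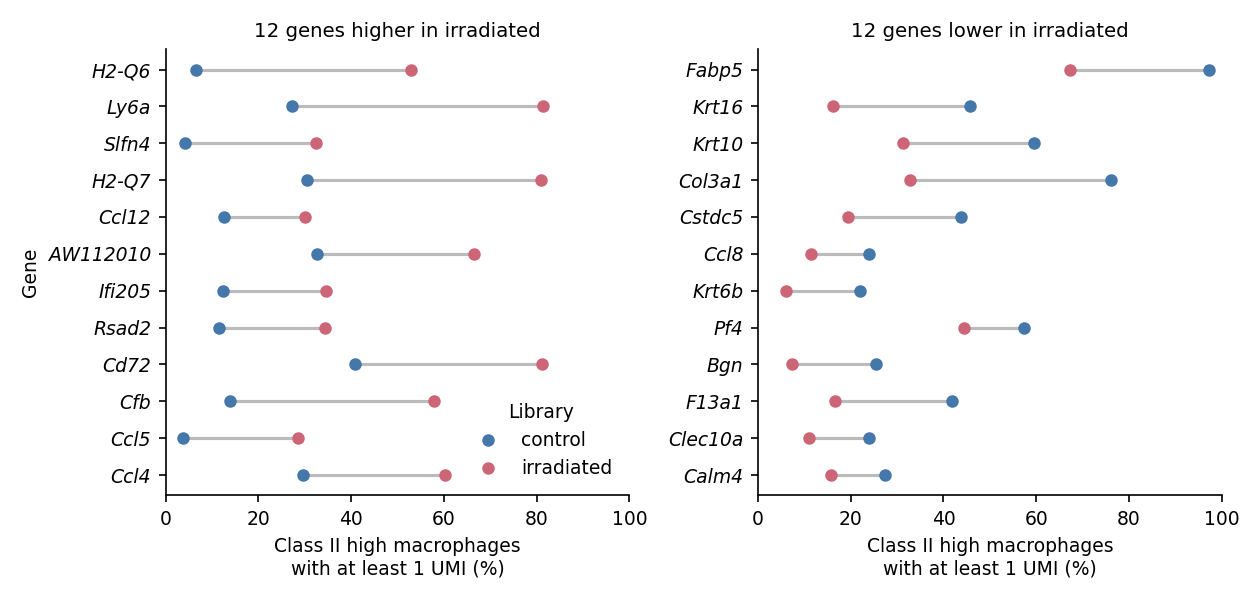
Share of class II high macrophages with at least 1 UMI, in percent on the horizontal axis and without thinning, for the 12 highest- and 12 lowest-ranked genes seen in at least 20% of members. Blue is the control and red the irradiated library; H2-Q6 goes from 6.54% to 52.9% and Fabp5 from 97.3% to 67.3%.

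Those epidermal and stromal transcripts differed between the libraries. The mesenchymal list gave 0 higher and 8 lower of 10 genes at a median of -1.06, and the keratinocyte list 0 higher and 4 lower of 12. Col3a1, a fibrillar collagen, was found in 76.2% of control and 32.7% of irradiated members, and after thinning in 34.5% and 8.57%, close to the 29.2% and 5.49% of keratinocyte barcodes. Krt14, a basal keratin, was found after thinning in 31.0% and 9.43% of members. Its sum was 559.8 and 476.5 CPM over all members, with 530 of the 1952 irradiated UMIs in 1 member, and 190.5 and 44.4 CPM in members without other lineages. The part of free RNA in these genes was not tested. Langerhans cell genes went the other way in the summed counts, with 4 of 5 higher at a median of 0.98, but few members carried them. The upper quartile of the list sum per cell was 0 in both libraries, and 13.6% of irradiated members lay above 0. The list median changed sign in 1 of 18 alternatives, where it was -0.17. Cd207, which encodes langerin, came from 6 control and 14 irradiated members. T and NK cell genes were measured only for Gzma and Gzmb.

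The same contrast was then drawn in 4 other myeloid sets of barcodes and in keratinocytes. The sets were macrophages with at least 10 CP10K of Mrc1 and Folr2 (641 control and 291 irradiated), those with at least 10 of Arg1 and Mmp12 (125 and 428), barcodes with at least 5 of Ly6c2 (197 and 766), class II high barcodes with C1qa and Ms4a7 under 3 (344 and 216), and keratinocytes (1571 and 909). Of all genes measured in each set, the shares called higher and lower were 6.35% and 5.28% for Mrc1 and Folr2, 7.3% and 13.3% for Arg1 and Mmp12, 9.76% and 5.21% for Ly6c2, 5.82% and 10.1% for class II with low C1qa and Ms4a7, and 6.63% and 11.1% for keratinocytes. The higher type I interferon list was common to all of them, with medians of 1.38, 1.64, 0.98, 1.33 and 2.40 in that order beside 1.13 in the members. Isg15 stood at 350.0 and 999.5 CPM in Ly6c2 barcodes and at 4.96 and 50.8 CPM in keratinocytes. The resident macrophage list was not lower in all of them, with medians of 0.72, -0.88, 0.38, -1.48 and -1.10 in the same order beside -1.42 in the members. In Mrc1 and Folr2 macrophages, chosen on genes of that program, 8 of its 16 measured genes were higher and 1 lower. The p53 list had medians of 0.53, 0.15, 0.34, 0.11 and 0.90 in the same order beside 0.28 in the members. In keratinocytes 15 of 26 measured p53 genes were higher, and in Mrc1 and Folr2 macrophages 11 of 23. Cdkn1a stood at 357.1 and 926.5 CPM in Mrc1 and Folr2 macrophages. Cd72 was level in Arg1 and Mmp12 macrophages, at 26.4 and 29.2 CPM, and higher in Ly6c2 barcodes, at 41.0 and 208.9 CPM. Fabp5 was called lower in 4 of these 5 sets, and in class II high barcodes with low C1qa and Ms4a7 it stood at 954.1 and 725.3 CPM, which was not called. None of the differences between these sets was tested, as each holds the same 2 libraries.

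**Figure D5:**
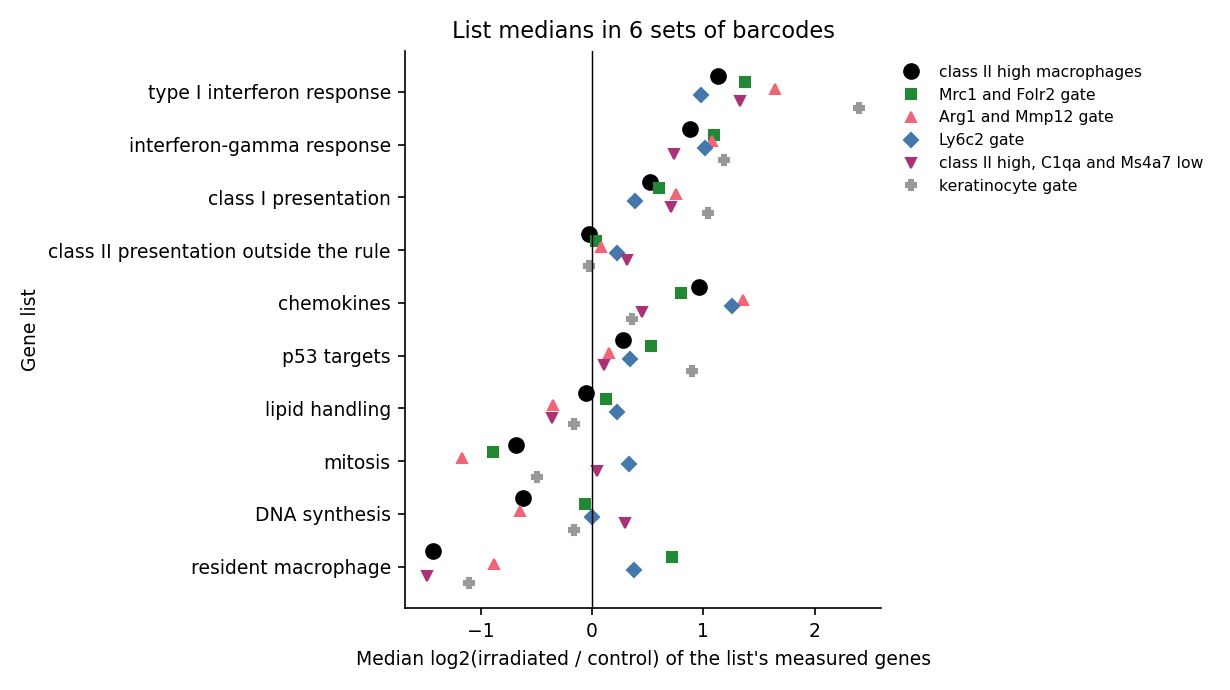
Median log2 ratio of irradiated over control for the measured genes of 10 lists, on the horizontal axis, in class II high macrophages (black circles) and 5 other sets of barcodes of the same libraries. The type I interferon list lies right of 0 in all 6 sets, whereas the mitosis list lies at -0.68 in the members and at 0.33 in Ly6c2 barcodes.

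Within a library the list sums varied between members. After thinning, the lysosome and lipid lists varied together across cells. Their Spearman correlation was 0.65 over 255 control cells and 0.55 over 350 irradiated cells. The class II sum had correlations of -0.37 and -0.26 with the lipid list and of -0.35 and -0.30 with the resident list. With the interferon list they were 0.00 and -0.02. That sum is a value of the rule, cut at 50 CP10K, and the rule also capped Mrc1 and Folr2 of the resident program. Correlations with the class II sum are therefore descriptions within the rule's limits and support nothing. Cells of a library share its depth and handling, and these values describe the cells of these 2 libraries only.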

How the data were processed

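The deposited files were 1 matrix of UMI counts per library, made with Cell Ranger 5 on mm10 per the submitters' processing notes; per the file headers the version was 5.0.1. The authors deposited raw counts for 32285 features, without cell types. Members were gated on CP10K. Counts were summed over members and compared as CPM with exact Poisson and Clopper-Pearson intervals in Python 3.11.15, numpy 2.4.6, scipy 1.17.1 and pandas 2.3.3; scanpy 1.11.5 supplied Scrublet, run for 0.8% doublets per 1000 barcodes, and doublets were kept unless stated. The ratio intervals and the rule for calls were tried on simulated sums with Poisson noise alone, which hold no spread between cells. Barcodes of a library are not replicates, so no p-value is given. Median member depth was 8040 and 10981 UMIs. Named genes were fixed anchors, up to 4 called genes per list with the bound farthest from equality, the 12 genes at either end with at least 50 UMIs, and genes of the rule; other list genes, the promoters and the ranking of widely seen genes were chosen after their values were seen. The members and the lists were chosen with earlier results of these data known. Mx1, Mx2 and Clec7a were not analysed here. Alternatives covered doublets, other lineages, thinning, limits, scaling and filters. A ratio against a library at 0 takes 3 counts as the floor. Some members of the lists are counted but not reported here by name.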

Additional observations from a re-analysis of the deposited data

Results flagged for a closer look

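The mitosis genes had a median log2 ratio of -0.68 in class II high macrophages (14 measured) and of 0.33 in barcodes with at least 5 CP10K of Ly6c2 (10 measured). In the latter none was called and their sums were level, at 55.9 and 56.8 CPM. The members' own median reached 0.10 when every cell was weighted alike. The DNA synthesis genes had a median of -0.62 in the members and of 0.30 in class II high barcodes with low C1qa and Ms4a7. In the latter 0 of 16 were called higher and 1 lower. With 1 library per group neither difference was tested, and the counts behind both lists were low.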

How the results depend on the processing

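The ratio of member shares, 0.86 on the log2 scale, moved to 0.57 among barcodes of 5000 to 20000 UMIs, to 1.46 with no limit on Ly6c2, to 0.50 with no limit on Mrc1 and Folr2, and to 0.13 over myeloid barcodes. The counts of 629 higher and 946 lower genes became 330 and 260 after thinning and new gating (of 5868 measured), 1093 and 1520 with every cell weighted alike and called by the fold alone, 417 and 404 from 100 UMIs on, and 314 and 486 at 2-fold. Thinning and new gating kept 158 of 217 control and 231 of 274 irradiated barcodes as members of both gates. The named genes gave 2697 values over the alternatives, of which 37 changed sign, 14 in called genes and 23 in genes that were not called. Among the latter Ciita ranged from -0.47 to 0.53 and H2-Eb1 from -0.032 to 0.18. The 14 follow. Without doublet-scored barcodes G0s2 was at 0.78, and 0.70 when other lineages and dendritic transcripts were left out as well, where H2-DMb2 was at -0.30. Without dendritic or Langerhans transcripts Cd24a was at -0.11, Cldn1 at -0.053, H2-DMb2 at -0.23, Il4i1 at 0.18 and Mfge8 at -0.28. Under the stricter gate G0s2 was at 2.77 and Pdgfc at 0.41. After thinning Epcam was at -0.037 and Glb1 at 0.99. With equal weights Nusap1 was at 0.41, and without the highest member Hbb-bt was at 2.35. The cause of these changes was not tested. Alternatives with single limits dropped, the depth band, the combined exclusions and the highest member left out were chosen after seeing the data. No paired analysis was possible because each group has 1 library.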

Other observations

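Some genes of dead-cell uptake, stress and lineage control were also called, beside 5.82% higher and 8.75% lower of all genes measured. On the efferocytosis list 5 of 18 measured genes were higher and 3 lower in the irradiated members. Axl, a receptor that binds dying cells through Gas6, stood at 102.8 and 212.1 CPM in control and irradiated members. Of the higher genes Mfge8, a bridge to dying cells, was at -0.28 on the log2 scale once members with dendritic or Langerhans transcripts were left out. Heat shock genes gave 0 higher and 3 lower of 10, among them Hspa1a at 185.4 and 82.7 CPM and Hspa1b at 156.6 and 65.9 CPM, inducible chaperones that are close copies. Of 19 myeloid transcription factors 2 were higher and 0 lower, with Cebpa, a regulator of the monocyte lineage, at 55.5 and 98.1 CPM. Siglec1, a sialic acid receptor of macrophages, had 13 and 88 UMIs. None of these differences has a replicate check.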
